A study of Mus musculus with 9 samples.

Results

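Kit, Neurog3, Stra8, Dmrtb1, Sohlh2, Sohlh1 and Dmrt1 are regulators of spermatogonial differentiation, and their RNA levels were measured in cultured mouse spermatogonial stem cells (SSCs). They were chosen by name from the Kit, Stra8, Sohlh, Dmrt and Neurog3 genes, as 7 of the 53801 genes in the count table. All 7 passed the filter on low counts, which left 22452 genes for testing. The cells were derived from Prmt5 flox/flox; Rosa26-CreERT2 mice, in which 4-hydroxytamoxifen (4OHT) activates a Cre recombinase present in essentially all cell types, and 4OHT was used at 1 µM to delete Prmt5.

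The 9 libraries fall into 3 groups of 3, labelled 4OHT, MU and OE. From the methods of the study, all of them are 4OHT-treated knockout SSCs. The OE label is read here as added wild-type PRMT5 and MU as a catalytically dead PRMT5, both delivered by lentivirus, although the labels do not spell this out. Mouse age is not given in the labels. EtOH-treated control cells were not analysed here, so each level is described relative to 4OHT alone or to the other construct. Nothing in the labels says whether replicates came from separate cultures, so p-values measure only the spread between these libraries, which may be technical.

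Undifferentiated spermatogonia renew the germline or become differentiating spermatogonia, a step that requires retinoic acid. NEUROG3 marks progenitors on the way to differentiation. SOHLH1 and SOHLH2 are partner transcription factors of the basic helix-loop-helix class that promote expression of Kit, the receptor for KIT ligand and the classical surface marker of differentiating spermatogonia. STRA8 is induced by retinoic acid and is needed for meiotic initiation. DMRT1 maintains spermatogonia in the mitotic programme and restrains meiosis, and DMRTB1 (also called DMRT6) acts in the exit from the spermatogonial programme.

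Sequences upstream of the genes were examined because several of the regulators bind DNA, the SOHLH factors at E-boxes (CANNTG) and DMRT factors at sites with the core ACANTGT. RefSeq windows of the 250 bases before the start site (GRCm38.p6) matched 6 of the 7 genes, and Dmrt1 was not matched. In the GENCODE annotation used below, all 250 bases of the Stra8 window (chr6:34920698-34920947) lay in exons. The Kit window shared 71 bases with exons and the Sohlh2 window 16. The windows of Sohlh1 (chr2:25847249-25847498, minus strand) and Dmrtb1 (chr4:107684231-107684480, minus strand) are shown because they held the most E-boxes among the windows that share no base with an annotated exon. Capitals mark CANNTG, and the marked sites do not overlap each other.
Sohlh1: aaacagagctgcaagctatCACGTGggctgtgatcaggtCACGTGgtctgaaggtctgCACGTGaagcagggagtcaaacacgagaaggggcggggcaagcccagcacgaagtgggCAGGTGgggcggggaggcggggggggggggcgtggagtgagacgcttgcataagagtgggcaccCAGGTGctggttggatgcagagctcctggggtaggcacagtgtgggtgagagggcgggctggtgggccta
Dmrtb1: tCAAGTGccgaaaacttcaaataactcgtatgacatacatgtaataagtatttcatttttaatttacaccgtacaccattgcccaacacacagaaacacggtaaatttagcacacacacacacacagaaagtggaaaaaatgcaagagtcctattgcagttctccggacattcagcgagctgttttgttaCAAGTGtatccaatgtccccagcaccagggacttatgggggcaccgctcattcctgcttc
Sohlh1 held 5 E-boxes and Dmrtb1 held 2, whereas Neurog3 and Sohlh2 held 1 each. Kit and Stra8 held none in these windows. The E-box was therefore found in 4 of 6 windows, beside 66.2% of all 32851 promoter windows searched the same way on both strands. The ACANTGT core was present in the windows of Stra8 and Sohlh1 and in 6.47% of all windows. The nuclear receptor core motif AGGTCA was found 2 times for Stra8 and 1 time for Sohlh1, and in 14.0% of all windows. The Stra8 window is exon sequence in GENCODE, so its sites are not upstream of every annotated transcript. The GC box GGGCGG occurred in 3 of 6 windows, beside 32.7% of all. These matches are descriptions of letters and not evidence of binding.

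The genes lie on 7 different chromosomes of GRCm38. In the GENCODE vM21 annotation, Kit spans chr5:75574916-75656722 and Stra8 chr6:34920163-34939344, both on the plus strand. Neurog3 is at chr10:62133090-62134763 and Sohlh2 at chr3:55182028-55209957, also on the plus strand. Sohlh1 is at chr2:25842995-25847248 and Dmrtb1 at chr4:107676290-107684230 on the minus strand, while Dmrt1 spans chr19:25505618-25604329 on the plus strand. Of these genes, only Neurog3 shared annotated exon sequence with another gene, 273 bases with Fam241b on the opposite strand, and this is taken up with its values below.

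Library totals were 78751996 to 95370711 counts in 4OHT, 192033300 to 365719548 in MU and 79941857 to 154557863 in OE. Every MU library was thus deeper than every library of the other groups. A read pair was taken as about 4 counts, a setting rather than a measured value. Levels are given as CPM (counts relative to the library total) scaled by the trimmed mean of M-values (TMM), a library scaling that assumes most genes are unchanged. The targeted gene Prmt5 was at 30.3 ± 1.92 CPM (SD, n = 3) in 4OHT, 146.1 ± 0.957 CPM in MU and 1076 ± 7.61 CPM in OE. Thus the MU libraries had a lower Prmt5 RNA level than the OE libraries (log2 fold change -2.88, edgeR adjusted p = 1.09e-12). In these libraries the kind of construct and its RNA level cannot be told apart. By western blot, the study reported that PRMT5 protein was restored with either the wild-type or the dead form. Protein was not measured here. Whether the construct's own reads map to Prmt5 was not tested.

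Cell type markers also moved with the groups. The summed level of 11 measured pan germ cell genes was 2317 to 2395 CPM in 4OHT, 4111 to 4209 CPM in MU and 4315 to 4384 CPM in OE, and all 11 rose against 4OHT in both comparisons. The 12 fibroblast genes, which mark the feeder layer used in such cultures, summed to 9554 to 11606 CPM in 4OHT, 5293 to 5374 CPM in MU and 4156 to 4241 CPM in OE. The 11 macrophage genes (7 higher and 3, C1qa, C1qb and C1qc, lower than 4OHT in each comparison) summed to 174.3 to 190.1 CPM in 4OHT, 1099 to 1132 CPM in MU and 2164 to 2283 CPM in OE. In bulk libraries, fewer cells of a type and less RNA per cell cannot be told apart. Each member is therefore also given relative to the pan germ cell genes, a scaling that moved the median log2 fold change of all genes tested to -0.84 for OE against 4OHT and -0.77 for MU against 4OHT, from 0.018 and 0.043 with TMM. Under that scaling 8.60% of the genes called in OE against 4OHT and 9.08% of those called in MU against 4OHT were higher, instead of 51.8% and 52.7% with TMM. Of the 22452 genes tested, it called 1409 higher and 14983 lower in OE, and 1432 higher and 14345 lower in MU. A lower call under germ cell scaling is therefore common among all genes.

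All 7 regulators were higher in both construct groups than in 4OHT, and the values of each gene in the 3 libraries of 4OHT lay below those in all libraries of MU and OE. The changes were graded, from Kit at about 5-fold to Dmrt1 at about 1.5-fold. No regulator passed the test between MU and OE. In OE against 4OHT 57.8% of all genes tested were called at an adjusted p under 0.05 and 29.9% were called higher and 27.9% lower, so a single call is common in this comparison. In MU against 4OHT these shares were 56.0%, 29.5% and 26.5%. Both comparisons share the 4OHT libraries and are not independent of each other. Separation of the libraries was also common, in the higher direction at 31.5% of all genes for OE and 33.8% for MU, and in the lower direction at 30.1% for each.

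**Figure D1:**
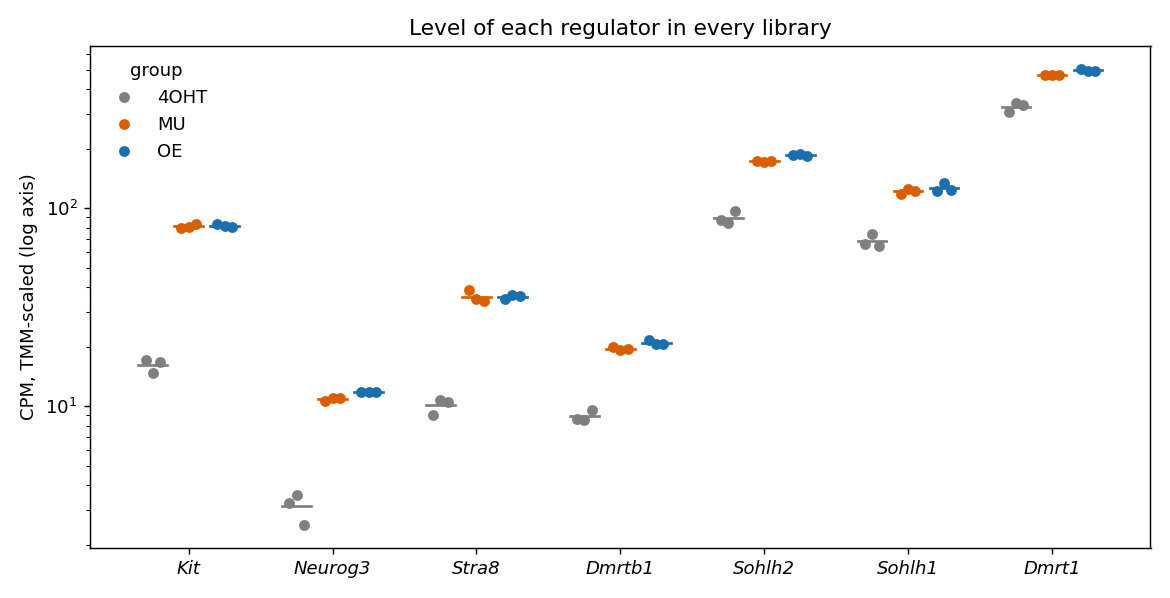
Level of the 7 regulators in each of the 9 libraries as TMM-scaled CPM on a log axis, with points for libraries and a short line for the group mean. For every gene the 4OHT libraries sit below the MU and OE libraries, and the MU and OE points lie close together.

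Kit, the receptor tyrosine kinase that marks differentiating spermatogonia, showed the largest change of the 7. It was at 17.2, 14.7 and 16.8 CPM in the 4OHT libraries, at 79.2, 80.3 and 83.7 CPM in MU and at 83.6, 81.1 and 80.3 CPM in OE. Every construct library was thus far above every 4OHT library, while MU and OE overlapped. Kit was 5.02-fold higher in OE than in 4OHT (95% interval 4.57 to 5.53, adjusted p = 2.72e-12 by edgeR's quasi-likelihood test) and 4.99-fold higher in MU (4.53 to 5.48, adjusted p = 4.20e-12). Among all genes tested, 3.10% had a larger log2 fold change than Kit in OE against 4OHT. That share was 4.35% for Neurog3, 4.72% for Stra8 and 9.01% for Dmrtb1. It was 11.3% for Sohlh2, 13.7% for Sohlh1 and 21.3% for Dmrt1. Relative to the pan germ cell genes, Kit was still higher, at 2.77-fold in OE and 2.83-fold in MU.

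Because Kit also marks mast cells and melanocytes, the defining genes of these cells were examined. The mast cell genes Cpa3, Tpsb2, Mcpt4, Ms4a2 and Fcer1a and the melanocyte genes Tyr and Tyrp1 were at or under the floor of 12 counts, taken as 3 read pairs, in each group. With the differing depth, that floor was 0.134 to 0.158 CPM in 4OHT, 0.0317 to 0.0607 CPM in MU and 0.0766 to 0.148 CPM in OE. It is therefore not the same level in each group. The summed level of the 8 mast cell genes was 11.9 to 13.9 CPM in 4OHT, 9.41 to 10.7 CPM in MU and 10.5 to 11.3 CPM in OE. The 6 melanocyte genes summed to 9.30 to 11.6 CPM in 4OHT, 10.9 to 12.5 CPM in MU and 12.8 to 15.1 CPM in OE. Of 4 melanocyte genes tested, 3 were higher in OE and 2 in MU than in 4OHT, among them Mlana (log2 fold change 1.55 in OE, adjusted p = 0.000657 by edgeR) and Dct (2.92, adjusted p = 0.0328), which was at or under the floor in 4OHT. The Dct result in OE stayed the same in only 8 of 15 alternative fits. Relative to the pan germ cell genes, 0 of the 4 were higher and 2 lower in OE, and 1 was higher and 2 lower in MU. Of 2 mast cell genes tested, 1 was lower in each comparison. Mlana and Dct were named after their values were seen, and the part of these cell types in the level of Kit was not tested.

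Neurog3, a transcription factor of spermatogonial progenitors, had the lowest counts of the 7 genes. It was at 3.27, 3.59 and 2.52 CPM in 4OHT, at 10.6, 11.1 and 11.0 CPM in MU and at 11.9, 11.8 and 11.8 CPM in OE. The 4OHT libraries differed among themselves more than those of the other groups, with a coefficient of variation of 17.5%, beside 2.21% in MU and 0.227% in OE. These rest on 3 libraries each, and 4OHT had only 226 to 300 counts. The part of depth in this spread was not tested. Neurog3 was 3.79-fold higher in OE (95% interval 3.16 to 4.54, adjusted p = 8.71e-09) and 3.48-fold higher in MU (2.91 to 4.17, adjusted p = 1.84e-08, edgeR). Under germ cell scaling the values were 2.09-fold and 1.97-fold.

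Fam241b, the gene that overlaps Neurog3 on the opposite strand, was at 22.1 ± 4.89 CPM (SD, n = 3) in 4OHT, 29.3 ± 2.66 CPM in MU and 31.8 ± 2.58 CPM in OE. Its log2 fold change was 0.53 in OE against 4OHT (adjusted p = 0.00337 by edgeR) and 0.41 in MU (adjusted p = 0.0160), smaller than the 1.92 and 1.80 of Neurog3. Whether the counting used the strand is not given in the sources used here, so reads in the shared bases cannot be told apart between the 2 genes.

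Stra8, the retinoic acid-induced gene required for meiotic initiation, was at 9.03, 10.7 and 10.6 CPM in 4OHT, at 38.5, 34.8 and 34.2 CPM in MU and at 34.8, 36.6 and 36.0 CPM in OE. The means of MU and OE were 35.8 CPM each. Stra8 was 3.54-fold higher in OE than in 4OHT (95% interval 3.15 to 3.98, adjusted p = 2.00e-10 by edgeR). Relative to the pan germ cell genes it was 1.95-fold higher in OE and 2.00-fold higher in MU. Kit, Neurog3 and Stra8 were therefore the genes that retained a change near or above 2-fold under both scalings.

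Dmrtb1, a DMRT factor of the transition out of the spermatogonial programme, was at 8.67, 8.50 and 9.60 CPM in 4OHT, at 19.9, 19.3 and 19.5 CPM in MU and at 21.6, 20.7 and 20.5 CPM in OE. Its change was 2.35-fold in OE (95% interval 2.10 to 2.62, adjusted p = 5.92e-09 by edgeR), and 1.29-fold after germ cell scaling. Here MU was below OE in every library, although the difference did not pass the test.

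Both SOHLH partners were higher with the constructs. Sohlh2 was at 87.7, 84.4 and 96.6 CPM in 4OHT, at 173.7, 172.1 and 172.7 CPM in MU and at 185.5, 187.2 and 183.4 CPM in OE. Sohlh1 was at 65.8, 74.3 and 64.4 CPM in 4OHT, at 118.2, 125.7 and 121.9 CPM in MU and at 123.0, 134.4 and 124.5 CPM in OE. Both genes were separated from 4OHT, and the Sohlh1 libraries of MU and OE overlapped. Sohlh2 was 2.07-fold higher in OE (95% interval 1.91 to 2.24, adjusted p = 8.54e-10) and Sohlh1 1.87-fold higher (1.71 to 2.05, adjusted p = 1.78e-08, edgeR). Relative to the pan germ cell genes, Sohlh2 was 1.14-fold higher in OE (adjusted p = 0.00579), whereas Sohlh1 no longer passed the test (log2 fold change 0.038, adjusted p = 0.633 in OE and 0.019, adjusted p = 0.824 in MU).

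Dmrt1 was the most abundant of the 7 and changed least. It was at 307.4, 340.4 and 332.3 CPM in 4OHT, at 471.0, 469.3 and 473.6 CPM in MU and at 507.4, 496.0 and 492.2 CPM in OE. The 3 groups did not overlap, with 4OHT lowest and OE highest. Dmrt1 was 1.53-fold higher in OE than in 4OHT (95% interval 1.42 to 1.64, adjusted p = 6.52e-08 by edgeR). This direction flipped under germ cell scaling, where Dmrt1 was lower in OE (log2 fold change -0.25, adjusted p = 0.000865) and in MU (-0.29, adjusted p = 0.000283). With that scaling 5 of the 7 regulators were called higher, 1 was called lower and 1 was not called, in each comparison.

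**Figure D2:**
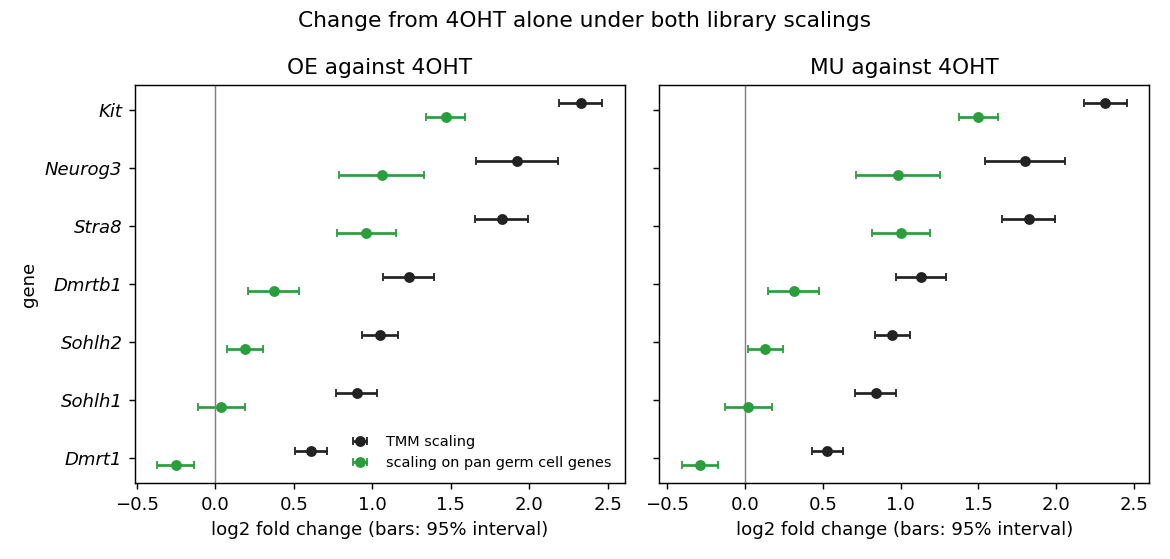
Log2 fold change of each regulator in OE and in MU against 4OHT, with 95% intervals from the edgeR fit, under TMM scaling (black) and under scaling on pan germ cell genes (green). Germ cell scaling shifts every gene to the left by a like amount, so that Kit, Neurog3 and Stra8 stay well above 0, Sohlh1 lies at 0 and Dmrt1 lies below it.

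The order of the changes was next compared in a way that does not rest on library scaling, using the log2 ratio of the counts of 2 regulators within each library. In OE against 4OHT the order was Kit, Neurog3, Stra8, Dmrtb1, Sohlh2, Sohlh1 and Dmrt1. In MU against 4OHT Stra8 came before Neurog3 and the rest were in the same order. Each pair was written with the gene of the larger change in OE first, so its direction follows from the order. Of the 21 pairs, the ratios of the construct libraries lay above those of the 4OHT libraries without overlap in 19 pairs in OE and in 19 pairs in MU. Over all pairs of tested genes, the ratios separated in either direction in 56.4% for OE and 59.3% for MU, so separation is common and the 21 pairs, which share their genes, are given as a description. With 3 libraries against 3, the exact permutation test cannot go below p = 0.10.

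The pairs that overlapped in OE were neighbours in the order, Neurog3 with Stra8 and Sohlh2 with Sohlh1. The difference between the log2 fold changes of Neurog3 and Stra8 was 0.099 ± 0.14 (SE) in OE and -0.022 ± 0.14 in MU, within its error. That of Sohlh2 and Sohlh1 was 0.15 ± 0.080 in OE and 0.11 ± 0.080 in MU. By contrast, the log2 ratio of Kit to Dmrt1 went from -4.33 ± 0.19 (SD, n = 3) in 4OHT to -2.61 ± 0.0072 in OE and -2.54 ± 0.036 in MU. This ratio rose by 1.72 in OE and 1.79 in MU, the full range of the changes among the 7 genes. The ratio of Kit to Stra8 was 0.69 ± 0.24 in 4OHT and 1.19 ± 0.064 in OE.

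Levels of different genes were compared per length, as CPM per kilobase of annotated exon sequence. In OE, Dmrt1 was highest at 192.2 ± 3.06, followed by Sohlh1 at 98.8 ± 4.79 and Sohlh2 at 78.4 ± 0.797 (SD, n = 3). Stra8 was at 19.9 ± 0.500, Dmrtb1 at 10.1 ± 0.284, Kit at 9.17 ± 0.191 and Neurog3 at 7.07 ± 0.0161. In 4OHT, Kit at 1.82 ± 0.151 and Neurog3 at 1.87 ± 0.326 did not differ beyond their spread with this length. The genes that changed most were thus low per length, and the order of changes was nearly the reverse of the order of levels. With the longest transcript in place of all exons, Kit was at 15.6 in OE and stood above Dmrtb1 at 11.3, so the rank of these 2 depends on the length used. In 4OHT the longest transcript put Kit at 3.10 ± 0.256, above Neurog3 at 2.03 ± 0.355, so their closeness also depends on the length.

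The study compared the constructs in differentiation genes and reported lower Kit, Dmrt1, Sohlh1 and Sohlh2 with its catalytically dead PRMT5. It also reported that wild-type PRMT5, but not the dead form, restored DMRT1 protein. MU and OE were therefore compared here, on RNA only. No regulator was called, by edgeR at adjusted p under 0.05 or at an unadjusted p under 0.05, beside 3.17% of all genes tested that were called (2.12% higher and 1.06% lower in MU). DESeq2 and limma voom also called 0 of the 7. All 7 log2 fold changes of MU against OE were at or below 0, from -0.12 for Neurog3 to -0.00033 for Stra8. Their median was -0.081, beside 0.0080 over all genes and -0.063 for the 11 pan germ cell genes. Under germ cell scaling the median of the 7 was -0.038, with 5 below 0 and 2 above. The lowest unadjusted p was 0.0712, for Sohlh2, and adjusted p ranged from 0.466 to 1.00. MU was lower than OE without overlap for Neurog3, Dmrtb1, Sohlh2 and Dmrt1, while 12.8% of all genes did so in that direction and 13.0% in the other. Kit, Stra8 and Sohlh1 overlapped.

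The intervals of these differences were narrow. For Kit the 95% interval of MU against OE was -0.14 to 0.12 on the log2 scale, and for Stra8 it was -0.16 to 0.16. For Sohlh2 it was -0.21 to 0.010 and for Dmrt1 -0.18 to 0.019. The widest belonged to Neurog3, at -0.36 to 0.12. These values do not show that the constructs act alike, but for each of these genes a difference larger than its interval was outside the range of the fit. That range rests on the spread between these libraries, which may be technical. In that case it leaves out any spread between separate cultures. Under germ cell scaling Kit and Stra8 turned to the other side of 0, at 0.031 and 0.042, so no direction can be given for these 2. With only the 6 libraries of MU and OE in the fit, Sohlh2 passed the test (log2 fold change -0.098, adjusted p = 0.0451).

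**Figure D3:**
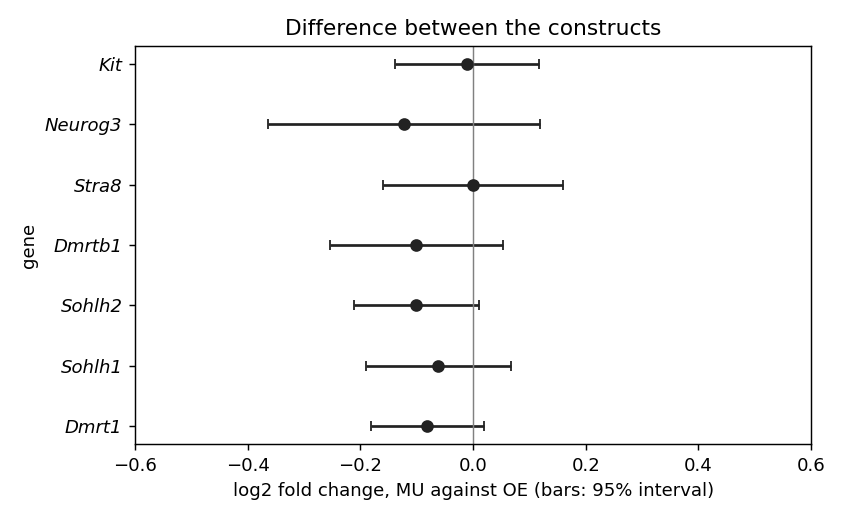
Log2 fold change of MU against OE for each regulator with its 95% interval, from the edgeR fit with TMM scaling. All 7 intervals include 0, and that of Neurog3 is the widest, from -0.36 to 0.12.

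The genes that act with these regulators were read from the same fit. Counts for this and the following lists stand beside 57.8% of all tested genes called in OE against 4OHT and 56.0% in MU. Of the 21 genes for KIT ligand and signalling, 4 were higher and 10 lower in OE against 4OHT, and 3 were higher and 10 lower in MU, with medians of -0.091 and -0.17. With germ cell scaling, 1 was higher in each comparison, and 19 were lower in OE and 20 in MU. Kitl, which encodes KIT ligand, was at 20.96 ± 2.59 CPM (SD, n = 3) in 4OHT, 9.58 ± 0.440 CPM in MU and 6.23 ± 0.467 CPM in OE. The ligand therefore fell while its receptor rose, with log2 fold changes of -1.75 in OE (adjusted p = 5.26e-09) and -1.13 in MU (adjusted p = 3.55e-07, edgeR). The fibroblast genes given above had the same order of groups as Kitl, and their part in this result was not tested.

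In the same list, the adaptor gene Shc1 fell by 1.06 on the log2 scale in OE (adjusted p = 5.31e-09, edgeR). Ptpn6, a phosphatase abundant in blood cells that limits KIT signalling, rose by 2.26 in OE (adjusted p = 5.18e-10) and by 1.37 in MU. Of the 21 genes, 3 differed between MU and OE. Kitl was higher in MU by 0.62 (adjusted p = 0.00331), and Ptpn6 (log2 fold change -0.89, adjusted p = 0.000156) and Lyn (-0.55, adjusted p = 0.00181) were lower; Lyn, a SRC family kinase, was named after its value was seen. The summed macrophage genes had the same order of groups as Ptpn6, with 7 of 11 genes higher and 3 lower than 4OHT in each comparison, and their part was not tested.

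Among 20 tested genes of the retinoic acid pathway, 3 were higher and 8 lower in OE against 4OHT, and 3 were higher and 11 lower in MU. Germ cell scaling gave 1 higher in each comparison, and 16 were lower in OE and 15 in MU. Crabp1, which binds retinoic acid in the cytoplasm, was at 783.7 ± 82.8 CPM in 4OHT, 184.7 ± 5.74 CPM in MU and 176.4 ± 7.89 CPM in OE, and fell by 2.15 on the log2 scale in OE (adjusted p = 1.36e-11). Crabp2 fell by 1.34 in OE (adjusted p = 1.01e-07). Aldh1a2, an enzyme of retinoic acid synthesis, rose by 0.66 in OE (adjusted p = 6.64e-07), but was lower under germ cell scaling (-0.20, adjusted p = 0.0203). Stra8 rose in libraries in which both retinoic acid-binding protein genes fell. The fibroblast genes given above were also highest in 4OHT, and their part in the fall of Crabp1 and Crabp2 was not tested.

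Meiotic entry genes were mostly higher with the constructs under TMM. Of 18 tested, 15 were higher and 1 lower in OE against 4OHT, and 15 were higher and 2 lower in MU, with medians of 0.72 and 0.71, below those of the pan germ cell genes. Under germ cell scaling 5 were higher and 7 lower in OE, and 5 higher and 6 lower in MU. Sycp1 and Sycp2, components of the synaptonemal complex, rose by 2.47 and 2.39 on the log2 scale in OE (adjusted p = 5.39e-12 and 9.08e-12 by edgeR), and Hormad1, a protein of the meiotic chromosome axis, rose by 1.46; under germ cell scaling these values were 1.61, 1.53 and 0.60, each still called. Spo11, which makes the meiotic double-strand breaks, fell by 3.27 in OE (adjusted p = 6.45e-07) and was named after its value was seen. Its level was low, at 2.30 ± 0.296 CPM in 4OHT and 0.242 ± 0.0896 CPM in OE.

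The other Dmrt genes and the targets of the SOHLH factors changed in part. Of 7 tested Dmrt genes outside the 7 regulators, 4 were higher in each comparison with 4OHT and none was lower. The share called in either direction was thus near that of all genes, 57.8% in OE and 56.0% in MU. Dmrtc1b (log2 fold change 0.98, adjusted p = 0.000189) and Dmrt3 (0.66, adjusted p = 0.000925) had the lowest adjusted p in OE, followed by Dmrtc2 (0.29, adjusted p = 0.00583, edgeR). Under germ cell scaling Dmrt3 and Dmrtc2 turned to negative values in both comparisons and Dmrtc1b in MU, and 0 of the 7 were called higher and 3 lower in each. Of 5 tested genes known to depend on SOHLH factors in the oocyte, only Lhx8 was called, with a rise of 1.04 in OE (adjusted p = 8.80e-08) and 1.13 in MU. Under germ cell scaling Lhx8 was no longer called in OE (0.18, adjusted p = 0.0584) and was called in MU at 0.32 (adjusted p = 0.00290), while 3 of the 5 genes were lower in each comparison.

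Other markers of differentiating spermatogonia moved in both directions. Of 12 tested, 8 were higher and 3 lower in OE against 4OHT, and 6 were higher and 3 lower in MU. The DNA methyltransferase gene Dnmt3b rose by 1.02 in OE (adjusted p = 2.70e-09) and the homeobox gene Rhox13 by 1.11 (adjusted p = 7.81e-09), whereas the cyclin gene Ccnd2 fell by 1.26 (adjusted p = 6.45e-11, edgeR). Scaled on germ cell genes, 3 were higher and 6 lower in each comparison, and Dnmt3b and Rhox13 stayed called at 0.16 and 0.25 in OE. Genes of undifferentiated spermatogonia were divided, with 8 higher and 10 lower of 22 in both comparisons. Under germ cell scaling 3 were higher and 13 lower in OE, and 4 higher and 16 lower in MU. Lower calls were also common among all genes with that scaling, so these counts do not set the list apart. Etv5 and Gfra1, a transcription factor and the receptor of the GDNF pathway, fell by 3.38 and 2.09 in OE (adjusted p = 5.14e-13 and 1.34e-12), and Foxo1, a transcription factor of stem cell maintenance, rose by 1.14 (adjusted p = 6.04e-11).

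**Figure D4:**
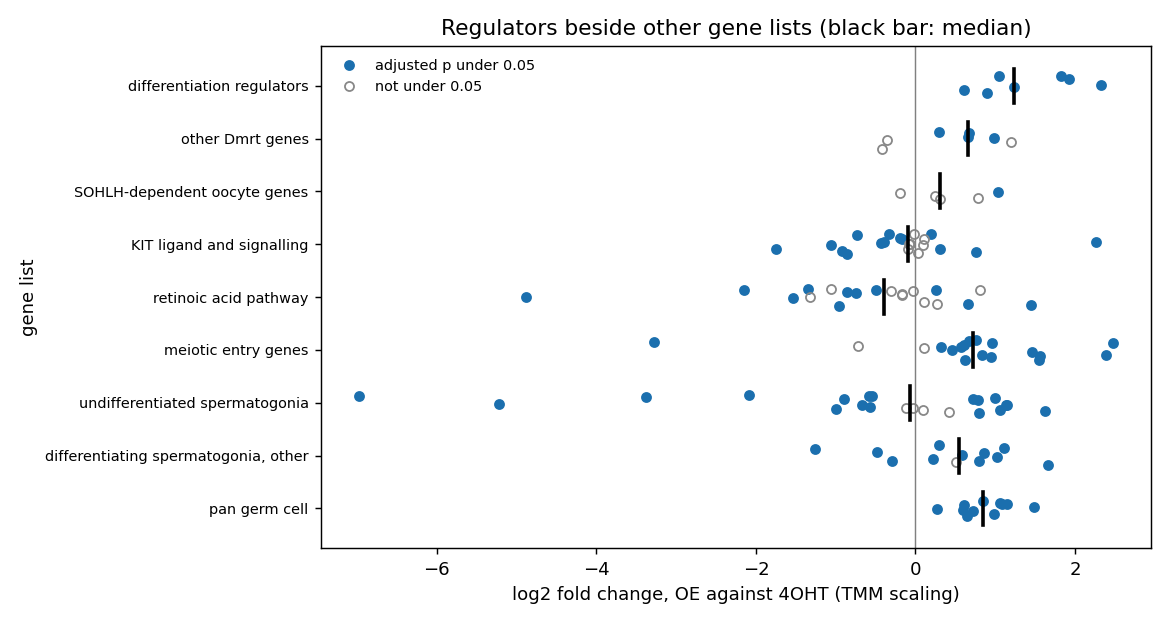
Log2 fold change of each tested gene in OE against 4OHT under TMM scaling, by gene list, with filled points for an adjusted p under 0.05 and a black bar at the list's median. The 7 regulators all lie above 0 with a median of 1.23, the 11 pan germ cell genes with a median of 0.85, and the list of undifferentiated spermatogonia spreads to both sides.

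The germ cell genes Ddx4 and Dazl, which are expressed at all these stages, rose by 0.99 and 1.05 on the log2 scale in OE against 4OHT (adjusted p = 1.58e-09 and 1.48e-09 by edgeR). The median of the 11 pan germ cell genes was 0.85 in OE and 0.83 in MU. All regulators except Dmrt1 rose by more than this median in both comparisons, with Sohlh2 and Sohlh1 closest to it, and Dmrt1 rose by less. Sertoli cells, which express Dmrt1 and KIT ligand in the testis, had a summed marker level of 29.3 to 33.2 CPM in 4OHT, 24.4 to 25.1 CPM in MU and 20.9 to 24.3 CPM in OE. Fshr was at or under the floor in each group. The Sertoli gene Sox9 fell by 1.42 in OE (adjusted p = 4.25e-08), and Amh was at or under the floor in OE. Over the 9 Sertoli genes tested, 4 were higher, 3 were lower and 2 were not called in each comparison with 4OHT, and under germ cell scaling 0 were higher and 6 lower in OE and 0 higher and 4 lower in MU. The part of Sertoli cells in the level of Dmrt1 was not tested.

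The genes most like each regulator over the 9 libraries were found by Pearson's r of log2 CPM among 15418 genes. Dmrtb1 was most like Zcwpw1 (r = 0.9992) and Sohlh2 (r = 0.9990), and Sohlh2 was also most like Zcwpw1 (r = 0.9992), followed by Ocln. Kit was most like Pop4 and Fbxo32, Stra8 was most like Ccnb3 and 4930524B15Rik, and Neurog3 was most like Ear2 and Rex2. Sohlh1 was most like Gm13577 and Tspan33, and Dmrt1 was most like Mon1b and Foxo4. Between 84 and 539 genes had an r above 0.99 with a given regulator, and the 9 points share their groups, so these values mostly describe the gap between 4OHT and the other libraries.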

How the data were processed

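mRNA libraries made from total RNA of 9 samples (4OHT, MU and OE, n = 3 each) were sequenced as paired reads. According to the labels and the study's methods, the authors trimmed reads with Trimmomatic 0.39, aligned them to GRCm38 with HISAT2 2.2.1 and quantified genes with StringTie 2.2.1. The deposited values are whole-number counts per gene without normalization; how they became whole numbers, and the treatment of strand and of reads with several matches, are not given in the sources used here.

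Counts were tested with edgeR 4.0.16 (quasi-likelihood test, TMM, filterByExpr with a minimum count of 10, all 9 libraries in one fit) in R 4.3.3, two-sided, with Benjamini-Hochberg adjustment over the 22452 genes tested and a threshold of 0.05. The common biological coefficient of variation was 0.155. Germ cell scaling took the library offset from the pan germ cell genes. Alternatives used DESeq2 1.42.0, limma 3.58.1 voom, other scalings and filters, and left out each library in turn. Log2 CPM used a prior count of 1.

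The named genes are all 7 regulators, Prmt5, at most 3 genes per other list with the lowest adjusted p in OE against 4OHT, defining cell type genes, and the 2 genes most like each regulator. The regulators and the lists were chosen with earlier results of these data known. Depth ranged from 78751996 to 365719548 counts.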

Additional observations from a re-analysis of the deposited data

How the results depend on the processing

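In OE and in MU against 4OHT, all 7 regulators stayed higher and called under DESeq2 size factors, no filter, the DESeq2 Wald test, limma voom, counts divided by 4, fits of 6 libraries and the omission of any library; germ cell scaling was the exception, with Dmrt1 at -0.25 in OE and -0.29 in MU and Sohlh1 not called. That scaling also turned Aldh1a2 (-0.20 and -0.15), Dmrt3 (-0.20 and -0.15), Dmrtc2 (-0.57 and -0.61) and the melanocyte gene Mitf (-0.48 and -0.74) in OE and MU, and Dmrtc1b in MU (-0.073). Its own construction, an offset from genes that rose, lowers every value; no other cause was tested.

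In MU against OE, Kit turned positive under germ cell scaling (0.031) and without a filter (0.028), and Stra8 under germ cell scaling (0.042), without a filter (0.038), with counts divided by 4 (0.0039), with the replicate block (0.00063) and with 6 libraries (0.0022). Leaving out each library gave -0.033 to 0.0059 for Kit and -0.055 to 0.034 for Stra8. The number of all genes called, 712, became 1140 with the DESeq2 Wald test, 1565 with 6 libraries and 388 at an adjusted p under 0.01. It was 400 to 1099 when one library was left out, at 432 without MU-1, 400 without MU-2, 411 without MU-3, 472 without OE-3 and 1099 without 4OHT-3. Of the regulators, 1 was called with 6 libraries. Of the genes in the other pathway lists (other Dmrt, SOHLH-dependent, KIT, retinoic acid, meiotic entry and other differentiating genes, without the cell type markers), 3 were called, against 9 with the DESeq2 Wald test, 6 with limma voom, 5 with counts divided by 4, 11 with 6 libraries and 3 to 6 with one library left out. The cause of these moves was not tested beyond the number of samples in each fit.

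Per length of the longest transcript, the OE levels were 15.6 for Kit, 7.69 for Neurog3, 11.3 for Dmrtb1 and 213.1 CPM per kilobase for Dmrt1. Same-numbered libraries of different groups did not deviate together (correlations -0.020 to 0.044), so the numbers were not used as pairs; with the replicate block the count in MU against OE was 674 genes and the calls of the 7 regulators did not change. Limma voom placed Neurog3 before Stra8 in MU. The depth limits Neurog3 most, with 226 to 300 counts in 4OHT.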
